A study of Mus musculus with 36 samples.

Results

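The loci of 6 members of the STAT family, Stat2, Stat3, Stat4, Stat5a, Stat5b and Stat6, were examined in chromatin accessibility profiles of mouse dendritic cells. Peaks were taken by position alone: each deposited peak that overlapped the body of 1 of these genes or the 10 kb to either side of it (build mm10). This gave 68 of 119751 peaks, of which 10 lay in the windows of 2 genes. In the RefSeq annotation of this build, Stat2 (chr10:128270498-128292853), Stat6 (chr10:127642955-127660987), Stat4 (chr1:51987106-52107189) and Stat5a (chr11:100859351-100885169) lie on the plus strand, and Stat5b (chr11:100780731-100859004) and Stat3 (chr11:100886806-100939594) on the minus strand. The Stat2 window held 10 peaks, Stat3 16, Stat4 15, Stat5a 10, Stat5b 16 and Stat6 11. Stat5b, Stat5a and Stat3 lie side by side on chromosome 11, so all 10 Stat5a peaks were shared, 6 with Stat5b and 4 with Stat3. The windows also took in parts of neighbouring genes, among them Il23a and Pan2 beyond the end of Stat2, Apof before its start, Nab2 beyond Stat6, and Gm31812 beyond Stat4. Peak lengths ran from 200 to 2745 bp with a median of 461.5 bp, and all 68 passed the filter on low counts.

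Accessibility was measured by ATAC-seq, which uses a transposase to cut accessible DNA and tag it for sequencing. The cells were dendritic cells grown with GM-CSF from the bone marrow of female C57BL/6 mice aged 6 to 8 weeks. Such cultures are mixtures of antigen-presenting cells, and the labels give no altered allele or transgene. Cells were left without ligand (Ctrl) or were given ligands of pattern recognition receptors for 6 h. The single ligands, with the letters used for them here, were PAM (P), LPS (L), HMW (H) and SeV (S), then cG for 3',3'-cGAMP and Z for depleted zymosan. LPS is a bacterial cell wall component, SeV is Sendai virus, 3',3'-cGAMP is a cyclic dinucleotide that activates STING, and zymosan is a yeast cell wall preparation. The pairs were PL, PH, LH, PS, PcG, ScG, ZS and ZcG, and the triplets PLH, PScG and ZScG, each named by its letters. Every one of the 18 groups had 2 libraries, 36 in all. The labels do not say whether the 2 libraries came from separate cultures or mice, so p-values measure only the spread between these libraries, which may be technical.

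STAT proteins are transcription factors that wait in the cytoplasm until a cytokine binds its receptor. Janus kinases at the receptor phosphorylate them, and they then pair and enter the nucleus. Stat2 works with Irf9 in the complex that type I interferons activate, Stat3 carries signals of IL-6 and IL-10, Stat4 those of IL-12, Stat5a and Stat5b those of GM-CSF and the IL-2 family, and Stat6 those of IL-4 and IL-13. Dendritic cells that sense microbes make many of these cytokines, which then act back on the same cells.

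Promoter sequences are shown because the data bear on the start sites: 5 of the 6 genes had a peak over a start site, and Stat4 had none over either of its 2. RefSeq (GRCm38.p6, the mm10 assembly) held 9 promoters for the 6 genes, each of 300 bases. The motifs searched were 5, each on both strands: TTCNNNGAA (the GAS motif of STAT dimers), the same with 1 more N in the middle (the wider spacing preferred by Stat6), TTTC-NN-TTTC (the interferon-stimulated response element, ISRE), GGG-NNNNN-CC (NF-kappaB) and TGANTCA (AP-1), where N is any base. Below are the 250 bases upstream of a start site, 5' to 3' on the gene's own strand, with matches in capitals.
Stat2 (chr10:128270248-128270497, plus strand): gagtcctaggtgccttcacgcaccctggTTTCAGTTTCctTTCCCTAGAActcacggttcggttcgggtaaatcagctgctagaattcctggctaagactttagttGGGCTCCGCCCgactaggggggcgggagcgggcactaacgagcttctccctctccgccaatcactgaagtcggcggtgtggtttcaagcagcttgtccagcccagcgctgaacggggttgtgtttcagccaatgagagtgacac
Stat3 (chr11:100939541-100939790, minus strand): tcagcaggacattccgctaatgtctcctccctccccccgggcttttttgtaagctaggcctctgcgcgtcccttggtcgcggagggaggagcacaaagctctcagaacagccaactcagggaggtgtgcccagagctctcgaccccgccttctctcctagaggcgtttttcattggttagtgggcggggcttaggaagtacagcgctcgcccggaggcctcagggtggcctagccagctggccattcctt
Stat4, second start (chr1:52007990-52008239, plus strand): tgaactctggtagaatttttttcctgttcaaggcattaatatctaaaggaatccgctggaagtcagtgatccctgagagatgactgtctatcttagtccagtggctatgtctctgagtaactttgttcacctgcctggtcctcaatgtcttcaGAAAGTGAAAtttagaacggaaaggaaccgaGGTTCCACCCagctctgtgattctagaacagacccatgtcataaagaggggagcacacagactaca
Stat5a, second start (chr11:100860234-100860483, plus strand): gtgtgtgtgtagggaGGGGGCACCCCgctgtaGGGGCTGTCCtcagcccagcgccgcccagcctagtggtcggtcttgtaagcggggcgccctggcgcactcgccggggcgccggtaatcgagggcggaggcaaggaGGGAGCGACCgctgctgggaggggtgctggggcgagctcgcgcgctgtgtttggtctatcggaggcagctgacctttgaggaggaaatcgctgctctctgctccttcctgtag
Stat6 (chr10:127642736-127642985, plus strand): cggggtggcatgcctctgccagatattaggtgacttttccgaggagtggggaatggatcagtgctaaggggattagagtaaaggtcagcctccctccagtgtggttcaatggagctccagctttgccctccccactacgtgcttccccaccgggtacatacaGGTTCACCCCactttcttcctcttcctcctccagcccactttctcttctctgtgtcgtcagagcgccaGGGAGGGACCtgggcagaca

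In the Stat2 promoter, the ISRE match TTTCAGTTTC stood at -222 to -213 from the start and the match TTCCCTAGAA to the wider spacing at -210 to -201. The second Stat4 promoter held an ISRE match, GAAAGTGAAA on the opposite strand, at -97 to -88 from its start. An ISRE match was found in 3.44% of the 32851 promoters of the same length in the table, and a match to the wider spacing in 6.95%. The GAS motif (8.3% of promoters) and the AP-1 motif (7.81%) were in none of the 9. Matches to the loose NF-kappaB pattern, which 50.8% of promoters hold, were found at Stat2, at the second Stat4 start, at both Stat5a starts, at the first Stat5b start and at Stat6, and overlapped each other at Stat2 and Stat5a. No motif matched at Stat3, at the first Stat4 start or at the second Stat5b start. These matches describe letters in a window, not bound sites.

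Counts per library ran from 19097027 to 39977088, and from 8181254 to 21985891 without a single peak over the mitochondrial genome, which was left out. The 68 STAT peaks together held 2617 to 11127 counts per library, and 1 count was worth 0.0404 to 0.138 CPM (counts scaled to a common library size). The mitochondrial share was 57.2% to 63.1% in the 10 libraries of Ctrl, Z, ScG, ZcG and ZScG and 44.1% to 58.1% in the 26 of the other 13 groups, and the labels name no batch. For those 13 groups, the share and the stimulation cannot be told apart in a comparison with control, whereas Z, ScG, ZcG and ZScG lie in the same range as control. Scaling by total counts in place of TMM moved the median of all peaks by 0.20 to 0.42 (log2) in the 13 and by -0.06 to 0.07 in the other 4, so changes below are relative to the TMM scale. Of the peaks called in P, 54.0% were higher with TMM and 87.1% with total counts, and the same shares were 50.6% and 81.1% in S and 50.1% and 81.1% in cG. Of 12 markers of myeloid and dendritic cells, 11 had at least 1 peak at their start or gene body, and Zbtb46 had none. Over the group means, Spi1, with 14 peaks in its gene body, stood at 83.5 to 140.0 CPM and the Itgax start at 12.3 to 23.8. The starts of Itgam (1.46 to 3.49) and Flt3 (2.43 to 5.59) were low. Those of Cebpa (38.3 to 66.7) and Batf3 (6.31 to 13.3) were highest in control. Of 18 markers of other cells, 4 had one: Klrb1c (9.72 to 17.9 CPM), S100a8 (7.25 to 18.9), Ms4a1 (5.85 to 12.1) and Col1a1 (3.95 to 10.3). Their part in the results was not tested, and in a bulk profile fewer cells with an open site and less opening per cell cannot be told apart.

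Across the family, most called changes were increases: 42 of the 68 peaks were higher in at least 1 of the 17 stimulations (61.8%, beside 35.0% of all tested peaks), 6 were lower in at least 1 (8.82%, beside 34.1%), and 21 passed the test in none. In either direction, 69.1% of the STAT peaks were called in at least 1 stimulation, beside 66.6% of all tested peaks. On the TMM scale the share called was thus near the background and its direction was not. With scaling by total counts, 68.6% (ZS) to 91.7% (H) of all called peaks were higher in the 13 groups with the lower mitochondrial share. The direction of STAT peaks was not compared with that background. Within these counts, 41 peaks were higher only, 5 lower only, and 1 went both ways. Of 1156 values (68 peaks by 17 stimulations), 284 were called higher (24.6%, beside 13% of all values) and 31 lower (2.68%, beside 12.3%), with an adjusted p-value under 0.05 by edgeR's quasi-likelihood test over all 119464 tested peaks. The stimulations share the same 2 control libraries and are therefore not independent of each other. By gene, 8 of 10 peaks in the Stat2 window changed in some stimulation, 11 of 16 at Stat3, 9 of 15 at Stat4, 7 of 10 at Stat5a, 11 of 16 at Stat5b and 8 of 11 at Stat6, against the 66.6% of all tested peaks given above.

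**Figure D1:**
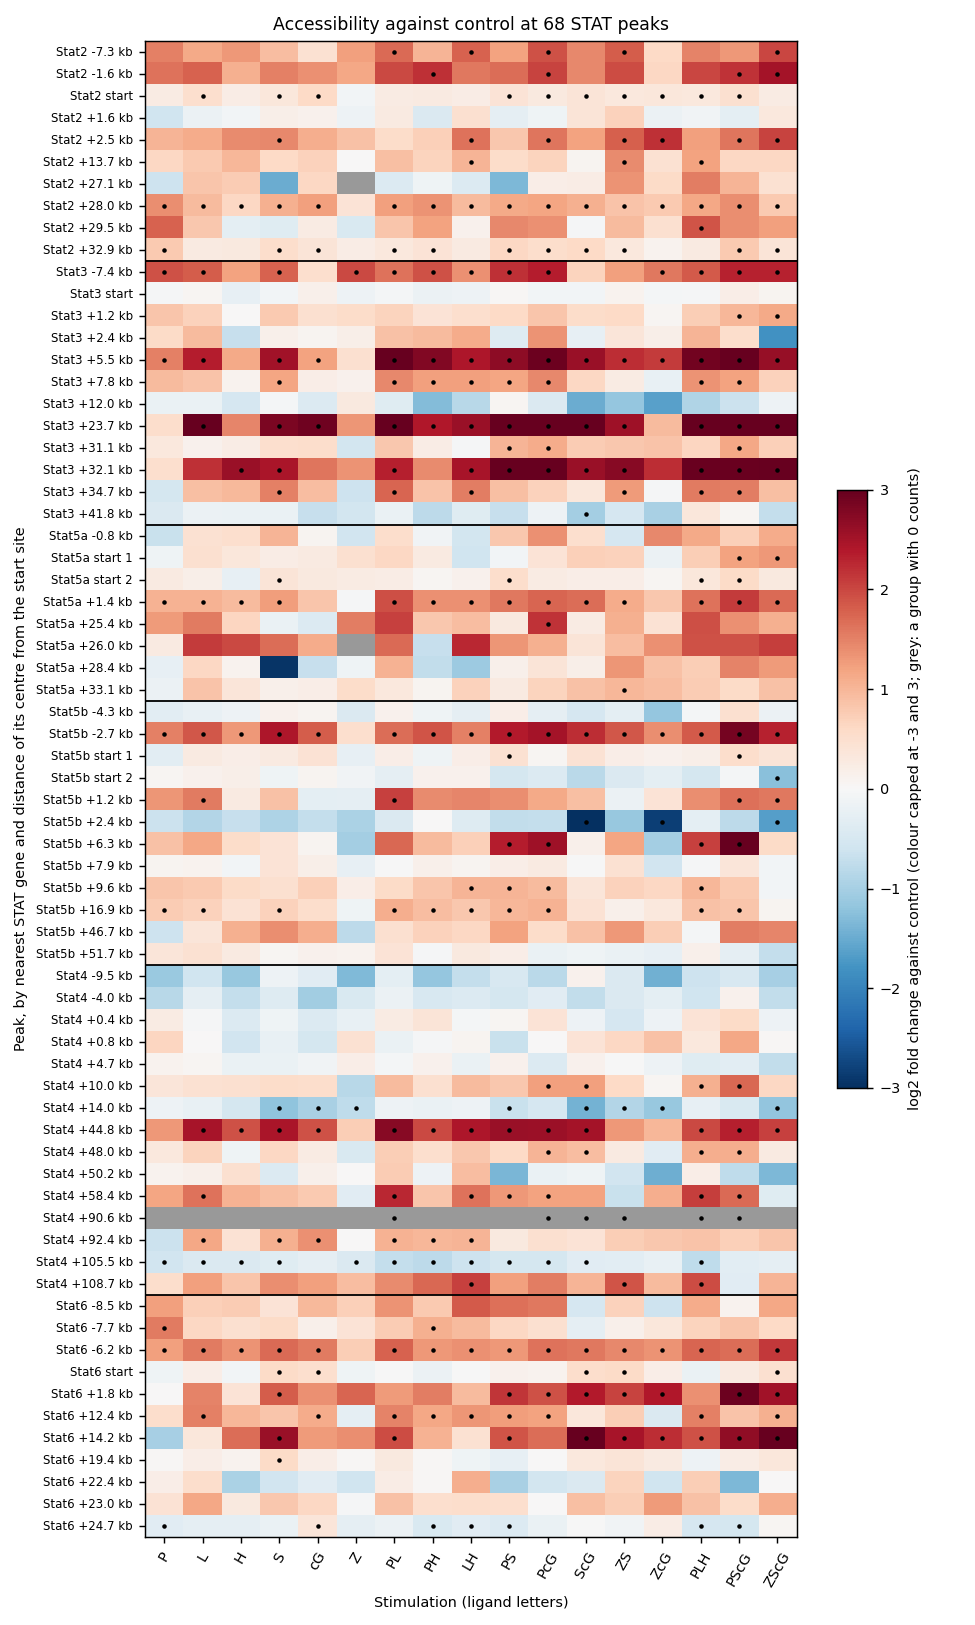
Log2 fold change against control at the 68 STAT peaks (1 line each, grouped by nearest gene and ordered by distance from its start site) in 17 stimulations (columns), with a dot for each of the 315 called values and grey where a group had 0 counts. Red lines with dots across most columns are Stat2 +28.0 kb, Stat5b -2.7 kb and Stat6 -6.2 kb, each higher in 16 stimulations, and the 2 blue dotted lines at Stat4 lie 14.0 and 105.5 kb from its nearest start site.

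Among single ligands, Sendai virus had the most STAT calls under TMM scaling, but with scaling by total counts L had 35 and S 30. In S, 21 of 68 were higher (30.9%) and 2 lower, beside 14.1% higher and 13.8% lower among all tested peaks. In L, 14 were higher (20.6%) and 1 lower, beside 11.2% and 11.1%. For cG the counts were 12 higher (17.6%) and 1 lower, beside 11.6% and 11.6%. In P, 9 were higher (13.2%) and 2 lower, beside 11.1% and 9.45%, so that the share of higher peaks was near that of all peaks. H gave 6 higher (8.82%) and 1 lower, beside 5.21% and 5.46%. With depleted zymosan, Z, only 1 was higher (1.47%) and 2 lower, beside 4.16% and 1.75%.

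All 3 triplets and 7 of the 8 pairs had more calls than P, L, H, cG and Z, and ZcG had as many as P. Among pairs, the STAT counts were 26 higher (38.2%) and 1 lower in PcG, where all peaks stood at 16.8% and 16.2%. They were 22 higher (32.4%) and 3 lower in PS, beside 17.3% and 16.2%. For LH they were 20 (29.4%) and 2, beside 11.3% and 10.5%, and for PL 20 and 1, beside 13.8% and 13.5%. ZS gave 19 (27.9%) and 1, beside 14.4% and 14%, and ScG gave 16 (23.5%) and 4, beside 14.4% and 13.3%. In PH, 15 were higher (22.1%) and 2 lower, beside 13.6% and 12.8%, and in ZcG 9 (13.2%) and 2, beside 11.4% and 10.2%. Of the triplets, PScG had 29 higher (42.6%) and 1 lower, beside 19% and 18%, PLH had 25 (36.8%) and 2, beside 14.9% and 14.7%, and ZScG had 20 (29.4%) and 3, beside 16.2% and 16.1%. The median log2 fold change of the 68 peaks was -0.02 in Z, 0.31 in P, 0.54 in S and 0.83 in PScG, while that of all tested peaks stayed between -0.04 and 0.04 in the 17 stimulations.

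**Figure D2:**
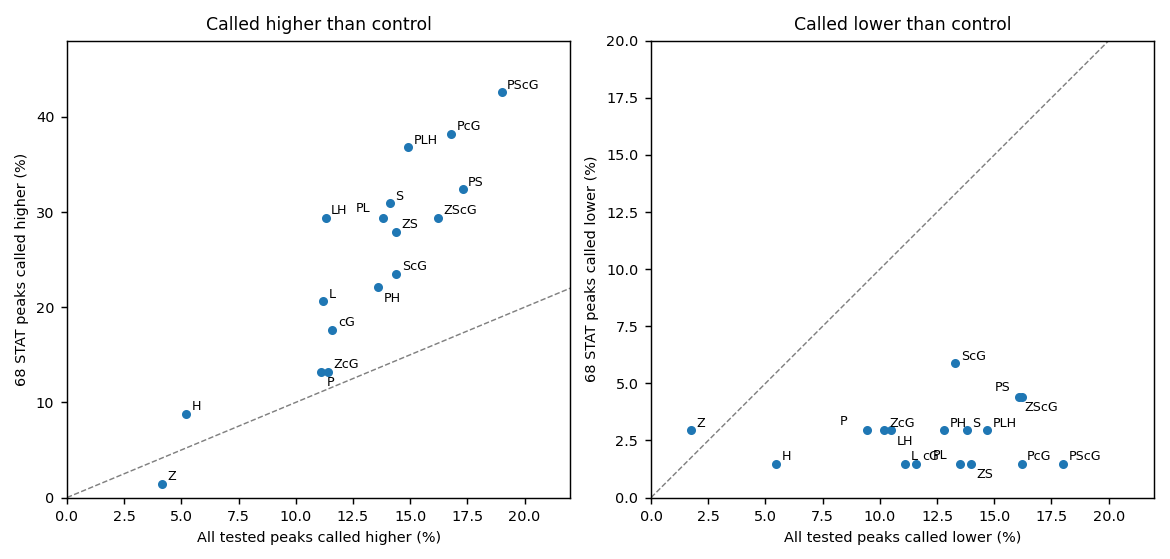
Percent of the 68 STAT peaks called higher (left) or lower (right) than control against the same percent over all 119464 tested peaks, 1 point for each of 17 stimulations, with a dashed line where both are equal. On the left, 16 points lie above the line and Z lies under it, and PScG is highest at 42.6% against 19%; on the right, 16 points lie under the line and Z above it.

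These counts leaned on single libraries. Over all tested peaks, too, the share called fell without control library 1 in S, LH, ZS, ZcG, H and Z, so these falls are not particular to STAT peaks. Without control library 1 the STAT peaks called fell from 23 to 15 in S, from 22 to 11 in LH, from 20 to 12 in ZS, from 11 to 7 in ZcG, from 7 to 2 in H and from 3 to 1 in Z. Without control library 2 they fell from 11 to 6 in P, from 22 to 11 in LH, from 27 to 17 in PcG and from 20 to 13 in ZS. Leaving out 1 stimulated library had a like effect in H (2 without library 1, 4 without library 2), Z (0 without library 1), PH (10 of 17 without library 1), LH (13 and 14 of 22), ScG (13 of 20 without library 2), ZS (11 of 20 without library 2) and PLH (16 of 27 without library 1). Of the 315 calls, 123 at 24 peaks passed the test in all 4 fits that left out 1 of the libraries compared.

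Stat2 codes for the interferon-activated factor that needs Irf9, and its window held the peak with the highest CPM of the 8 called in 13 or more stimulations. This peak, Stat2 +28.0 kb (chr10:128297804-128299282, named by the distance of its centre from the nearest start site), lies over the body of Il23a, the gene for the p19 chain of IL-23. Its 2 control libraries stood at 10.1 and 11.9 CPM. The single ligands stood at 28.2 and 30.0 CPM in P, 21.6 and 20.8 in L, 18.9 and 15.0 in H, 20.9 and 25.0 in S, 24.9 and 26.3 in cG, and 13.4 and 15.8 in Z. Pairs ran from 18 (ZcG) to 29.6 (PL), and the triplets stood at 26.0 and 23.3 in PLH, 29.6 and 28.2 in PScG and 17.1 and 21.0 in ZScG. All stimulated libraries were above both control libraries. The log2 fold change was 1.4 ± 0.148 (SE) in P, 1.22 ± 0.15 in cG, 1.35 ± 0.147 in PH, 1.39 ± 0.149 in PScG (adjusted p-value from edgeR 1.88e-15) and 0.63 ± 0.155 in H, and the peak was higher in 16 stimulations. In Z it was 0.42 ± 0.166 and did not pass (adjusted p-value from edgeR 0.123). Of the 16 calls, 15 passed in every fit that left out 1 of their libraries.

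Over the Stat2 start itself (chr10:128269971-128271188, 1218 bp, which also reaches into Apof), the increase was smaller. Control libraries stood at 31.1 and 29.8 CPM, L at 40.6 and 46.2, cG at 45.0 and 47.0, S at 38.0 and 39.2, P at 39.2 and 33.4, H at 38.6 and 32.7 and Z at 30.6 and 27.4. L and cG were the highest of the single ligands, and Z overlapped control. Against control, the log2 fold change was 0.6 ± 0.117 in cG (adjusted p-value from edgeR 1.81e-05), 0.51 ± 0.116 in L and 0.34 ± 0.117 in S, while P at 0.25 ± 0.118 and H at 0.23 ± 0.118 did not pass. The start was higher in 10 stimulations, in 5 without control library 1, in 4 without control library 2, and in 16 with offsets fitted by abundance.

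At the start of Pan2, a subunit of a deadenylase that shortens mRNA tails, the peak Stat2 +32.9 kb (chr10:128302643-128304246) was highest in P among the single ligands. In control, the libraries stood at 28.3 and 28.5 CPM, P at 47.4 and 51.0, S at 41.3 and 40.9, cG at 35.0 and 39.6, L at 32.7 and 36.1, H at 37.4 and 32.1 and Z at 31.9 and 34.5. Its log2 fold change was 0.79 ± 0.117 in P (adjusted p-value from edgeR 9.92e-09), 0.78 ± 0.118 in PScG, 0.53 ± 0.117 in S and 0.28 ± 0.118 in L, which did not pass. It was higher in 11 stimulations, and in 7 without control library 1. The other 7 peaks of the window were low, with means from 0.273 to 1.69 CPM in control. Of these, Stat2 +2.5 kb, in the gene body, was higher in 7 stimulations, with 3.98 and 1.78 CPM in ZcG beside 0.656 and 0.579 in control (2.2 ± 0.573), but in 2 without control library 1 and 2 without control library 2.

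Stat3, the factor downstream of IL-6 and IL-10, had the start peak with the highest CPM of the family and no change that passed the test there. The start peak (chr11:100938644-100940269, 1626 bp) stood at 58.5 and 63.7 CPM in control and between 50.1 (H) and 71.1 (cG) over all stimulated libraries, so the groups overlapped. Its log2 fold changes ran from -0.24 ± 0.0996 in H to 0.19 ± 0.0985 in PScG. Of the 17, edgeR called 0, with a lowest adjusted p-value of 0.0976 and 1 at an unadjusted p-value under 0.05, and DESeq2 called 0. With scaling by total counts 9 were called higher, 4 of which had a value below 0 under TMM, and with offsets by abundance 3, of which 1 had. The direction at this start thus depended on the scaling.

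Inside the gene, the peak Stat3 +5.5 kb (chr11:100933681-100934346) was higher in 15 stimulations. Control libraries were uneven, at 1.64 and 0.193 CPM, which are 15 and 2 counts. Single ligands stood at 5.65 and 3.56 CPM in L, 5.04 and 5.11 in S, 2.98 and 2.09 in P, 2.39 and 1.72 in cG, 2.48 and 1.29 in H, and 1.31 and 1.15 in Z. PL stood at 8.33 and 7.74 CPM, PcG at 5.05 and 8.61 and PScG at 7.63 and 8.89, so that these combinations were above each single ligand in the mean. L gave a log2 fold change of 2.36 ± 0.406, S 2.52 ± 0.401, PL 3.18 ± 0.389 and PScG 3.22 ± 0.387 (adjusted p-value from edgeR 8.35e-13). Z (0.48 ± 0.542) and H (1.14 ± 0.461) did not pass, and each had a library under the higher control library. Calls were in 16 stimulations without control library 1 and 12 without control library 2.

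Deeper in the gene, Stat3 +23.7 kb (chr11:100915636-100916124) was near the limit of detection in control, with 2 counts in each library (0.219 and 0.193 CPM). L stood at 2.12 and 1.73 CPM, S at 1.37 and 1.66, cG at 1.27 and 1.93, and PScG at 3.05 and 4.62, while P stood at 0.381 and 0.217, H at 0.572 and 0.603 and Z at 0.656 and 0.42. L, S and cG were thus apart from P, H and Z, with no overlap of their libraries. The log2 fold change was 3.16 ± 0.67 in L, 2.83 ± 0.69 in S, 2.92 ± 0.693 in cG and 4.17 ± 0.63 in PScG (adjusted p-value from edgeR 7.76e-09), against 0.52 ± 0.908 in P, which did not pass. It was called in 13 stimulations, and 12 of these passed in every fit that left out 1 of their libraries.

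Upstream of the gene, Stat3 -7.4 kb (chr11:100946739-100947195) showed another order of ligands. Control libraries stood at 0.546 and 0.772 CPM, P at 3.36 and 1.73, Z at 2.76 and 2.52, L at 2.76 and 1.99, S at 2.29 and 2.28, H at 1.91 and 1.12, and cG at 1.35 and 0.573. The libraries of cG overlapped those of control, and those of P, Z, L and S did not. Fitted log2 fold changes were 1.92 ± 0.499 in P, 1.97 ± 0.518 in Z (adjusted p-value from edgeR 0.00746), 2.35 ± 0.477 in PcG, 0.51 ± 0.57 in cG and 0.66 ± 0.585 in ScG, of which the last 2 did not pass. Without Z library 1 the Z call was lost at Stat3 -7.4 kb, the only STAT peak that was higher in Z. It was called in 13 stimulations, in 7 without control library 1 and in 11 without control library 2. Of the other Stat3 peaks, Stat3 +32.1 kb, with 3 counts over both control libraries, was higher in 11 stimulations, in 6 without control library 1 and in 0 without control library 2. Stat3 +7.8 kb was higher in 8, and in 3 without control library 1.

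**Figure D3:**
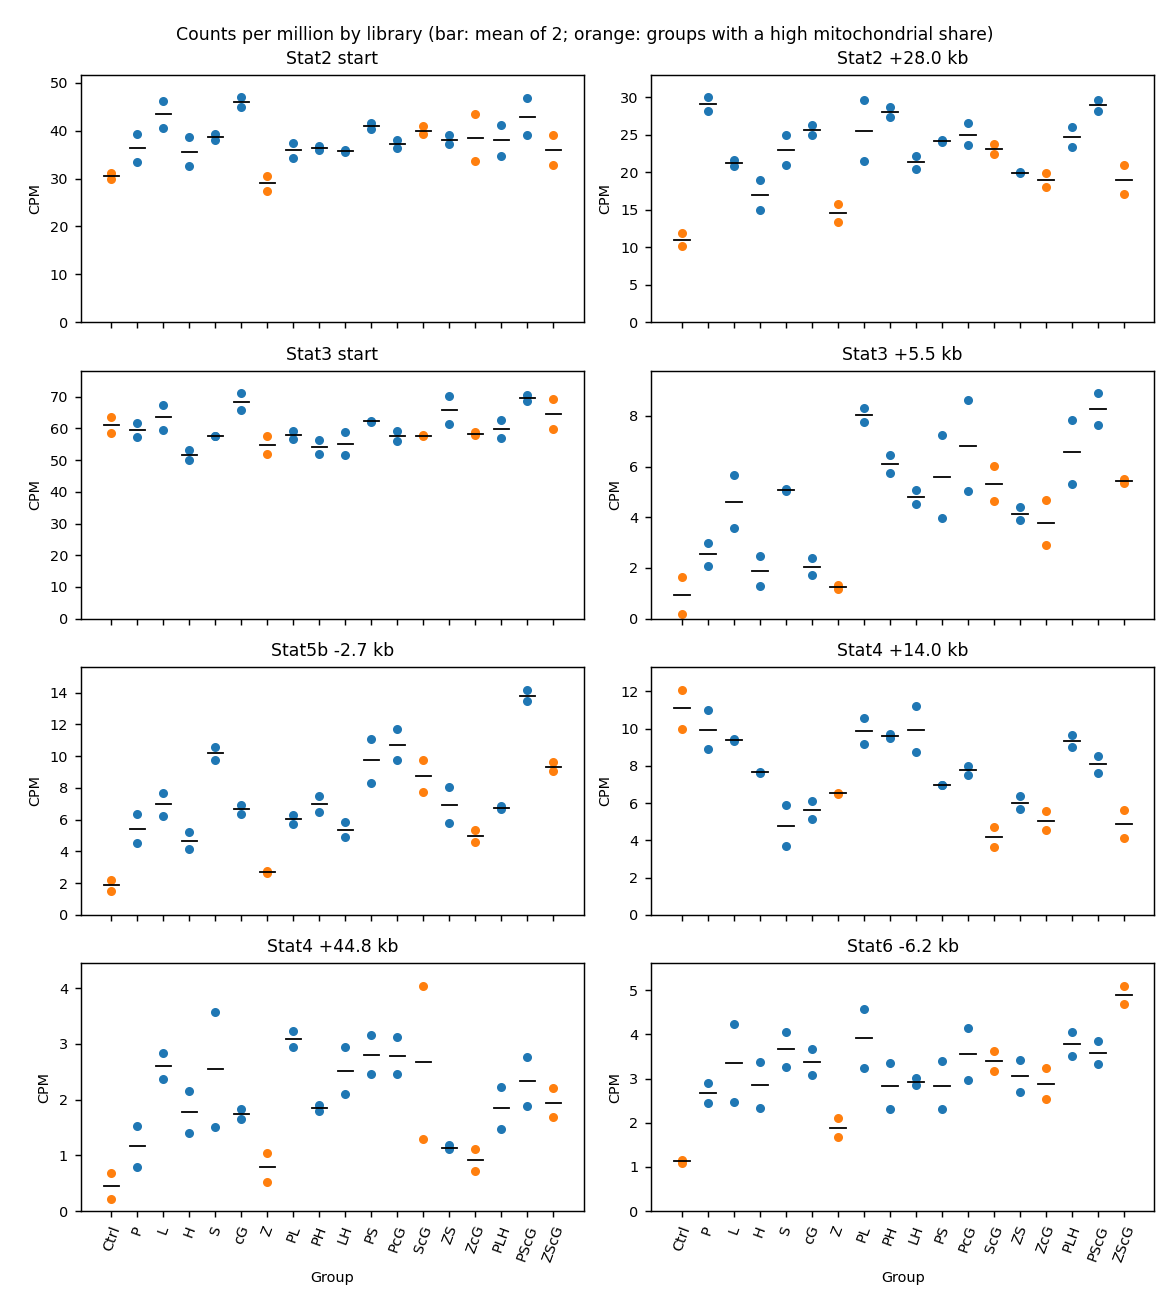
CPM in each of the 36 libraries (points) at 8 STAT peaks, by group, with a bar at the mean of 2 libraries and orange points for the 5 groups with a high mitochondrial share. The Stat3 start keeps to 50.1 to 71.1 CPM in every group, and Stat5b -2.7 kb climbs from 1.53 and 2.22 in control to 13.5 and 14.2 in PScG. Among single ligands, Stat4 +14.0 kb is lower than control in S, cG and Z, and by less in H and L.

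Stat5a and Stat5b, the pair of factors that GM-CSF activates, lie head to head, and the STAT peak with the lowest adjusted p-value lies in Stat5b near that junction. It was Stat5b -2.7 kb (chr11:100852904-100853637), inside the Stat5b body, upstream of the first of 2 listed Stat5b start sites and within the windows of both genes. In control, the libraries stood at 1.53 and 2.22 CPM. Single ligands stood at 9.75 and 10.6 CPM in S, 7.7 and 6.25 in L, 6.37 and 6.95 in cG, 6.33 and 4.55 in P, 5.21 and 4.14 in H, and 2.76 and 2.62 in Z. Pairs ran from 4.59 (ZcG) to 11.7 (PcG), and PScG reached 13.5 and 14.2. No stimulated library overlapped control. The log2 fold change was 2.42 ± 0.28 in S (adjusted p-value from edgeR 2.31e-13), 1.87 ± 0.29 in L, 1.81 ± 0.295 in cG, 1.52 ± 0.302 in P, 1.31 ± 0.307 in H and 2.87 ± 0.276 in PScG (adjusted p-value from edgeR 2.91e-18). Z, at 0.5 ± 0.36, was the 1 stimulation of 17 that did not pass (adjusted p-value from edgeR 0.478). Of the 16 calls, 15 passed in every fit that left out 1 of their libraries.

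The Stat5a peak next to its start, Stat5a +1.4 kb (chr11:100861348-100862349), was higher in 14 stimulations. Control libraries stood at 2.4 and 1.83 CPM, S at 4.97 and 5.04, L at 5.3 and 3.56, P at 3.28 and 5.42, H at 4.95 and 3.1, cG at 4.93 and 2.65, and Z at 2.1 and 1.99. PL (5.6 and 11) and PScG (7.09 and 10.7) were higher still, though their own 2 libraries lay far apart. On the log2 scale the change was 1.25 ± 0.328 in S, 1.94 ± 0.321 in PL and 2.09 ± 0.316 in PScG (adjusted p-value from edgeR 8.52e-09). The peak was not called in cG (0.83 ± 0.345), Z (-0.04 ± 0.406) or ZcG (0.8 ± 0.365). Without control library 2 it was called in 9.

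Start peaks of these genes were called in few stimulations. The first Stat5a start (chr11:100859055-100859815) stood at 2.19 and 2.12 CPM in control and was higher in PScG, at 4.49 and 5.41 (log2 1.2 ± 0.365), and in ZScG, at 6.03 and 4.55 (1.3 ± 0.377). The second Stat5a start (chr11:100859968-100861089), at 20.9 and 19.3 CPM in control, was higher in S (0.39 ± 0.135), PS (0.53 ± 0.133), PLH (0.34 ± 0.136) and PScG (0.57 ± 0.136). It was called in 2 stimulations without control library 2 and in 13, higher, with scaling by total counts. The first Stat5b start (chr11:100849995-100851622), at 13 and 12.2 CPM in control, was higher in PS (0.45 ± 0.169) and in PScG, at 18.7 and 17.6 (0.53 ± 0.174); it was called in 0 stimulations without control library 2 and in 10, higher, with scaling by total counts. At the second Stat5b start (chr11:100822337-100822862), ZScG was lower, at 1.9 and 1.93 CPM beside 5.46 and 3.76 in control (-1.26 ± 0.371), a call that was lost without control library 1.

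Further into Stat5b, the peak Stat5b +16.9 kb (chr11:100805391-100805954) was higher in 10 stimulations, with a log2 value of 1.08 ± 0.259 in PL. Control libraries differed, at 2.84 and 6.08 CPM, and PL stood at 8.61 and 10.6. Without control library 1 it was called in 0 of 17, and without control library 2 in 13. None of the 4 stimulations with a mitochondrial share like that of control was called. Another Stat5b peak, Stat5b +2.4 kb, named after its values were seen, was lower in ScG (0.186 and 0.328 CPM beside 3.5 and 1.64 in control), ZcG (0.724 and 0) and ZScG (1.01 and 0.552). These are 3 of those same 4 stimulations, and the peak was called in 2 without control library 1.

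**Figure D4:**
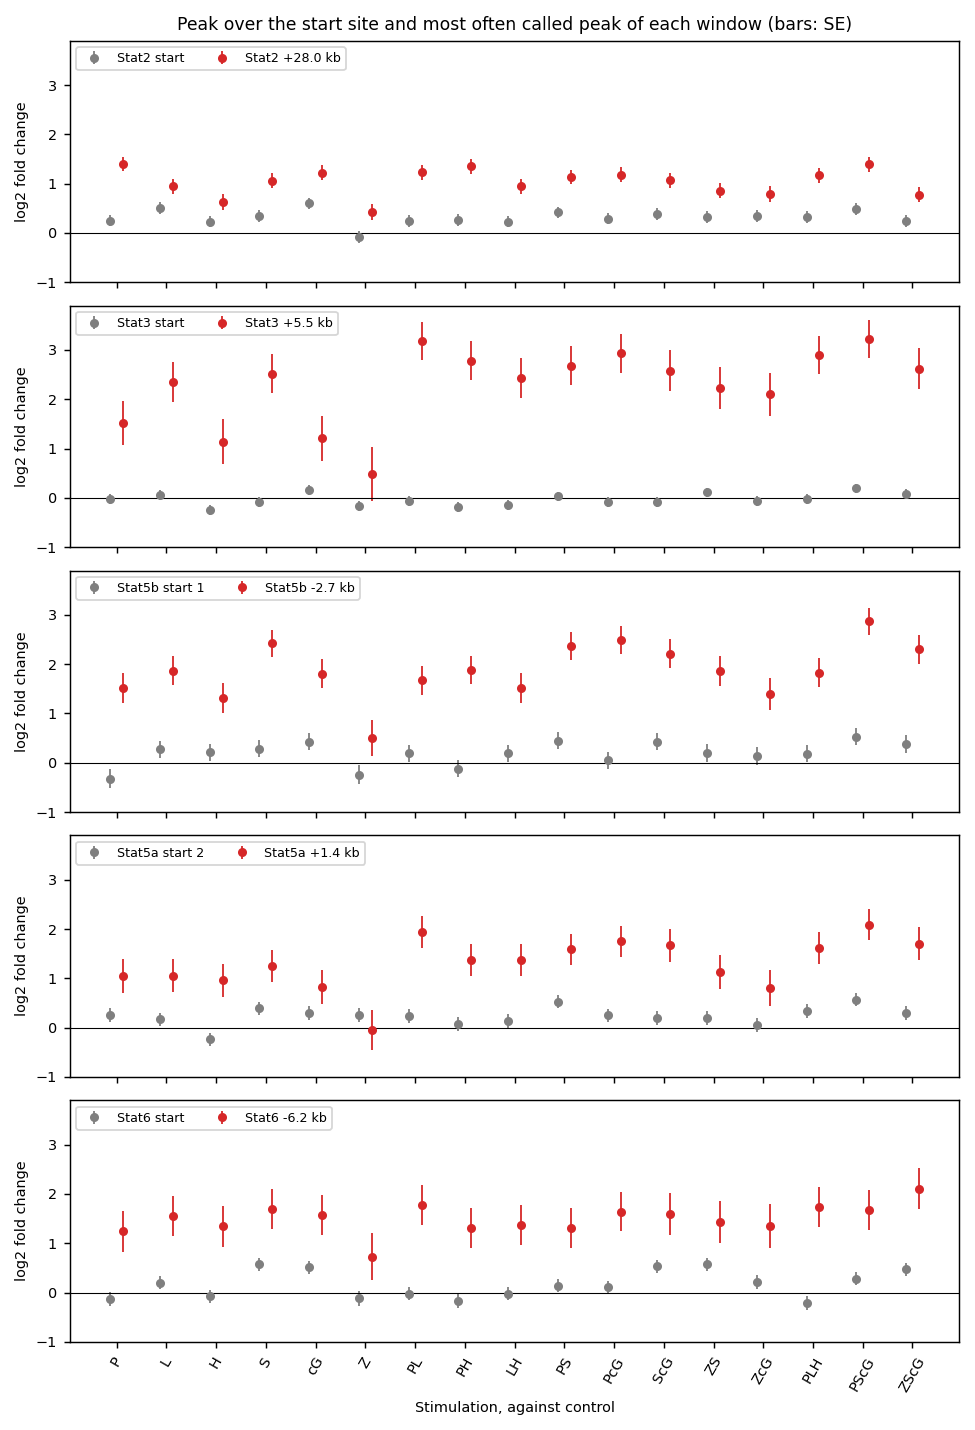
Log2 fold change against control with its standard error (bars) in 17 stimulations, for a peak over a start site (grey) and the most often called peak of the gene (red; for Stat5a, +1.4 kb, since its window shares Stat5b -2.7 kb). Only 1 start peak per gene is drawn: these grey points keep within -0.32 and 0.60, while the start peaks not drawn reach 1.3 (first Stat5a start) and -1.26 (second Stat5b start), and red points reach 3.22 at Stat3 and 2.87 at Stat5b and are lowest in Z.

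Stat4 carries IL-12 signals, and both peaks that fell in 8 or more stimulations lay in its window. No peak lay over either start site. The nearest, Stat4 +0.4 kb (chr1:52008283-52008907), began just past the second start. It had a mean of 2.88 CPM in control and was called in 0 stimulations. Inside the gene, Stat4 +14.0 kb (chr1:52021811-52022668) stood at 12.1 and 10.0 CPM in control, 5.89 and 3.69 in S, 5.17 and 6.09 in cG, 6.56 and 6.5 in Z, 7.62 and 7.67 in H, 8.93 and 11 in P and 9.47 and 9.33 in L. S, cG and Z lay below both control libraries, as did H and L by less, and P overlapped them. The log2 fold change was -1.21 ± 0.227 in S (adjusted p-value from edgeR 5.25e-06), -0.97 ± 0.227 in cG, -0.76 ± 0.236 in Z and -1.42 ± 0.247 in ScG, against -0.15 ± 0.213 in P, -0.23 ± 0.212 in L and -0.53 ± 0.219 in H, which did not pass. It also fell in PS, ZS, ZcG and ZScG, so that each of the 8 stimulations held S, cG or Z, while PcG (-0.51 ± 0.214) and PScG (-0.45 ± 0.219) did not pass. Without control library 1, 5 were called. All 4 stimulations with a mitochondrial share like that of control were among the 8.

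The other peak that fell, Stat4 +105.5 kb (chr1:52113250-52114304), lies past the 3' end of Stat4 over the start of Gm31812. In control, the libraries stood at 26.7 and 33.0 CPM, P at 18.3 and 21.5, L at 22.5 and 22.1, S at 24.8 and 21.7 and PH at 18.8 and 15.8. Its log2 fold change was -0.58 ± 0.138 in P, -0.79 ± 0.138 in PH (adjusted p-value from edgeR 9.53e-07), -0.77 ± 0.139 in PLH and -0.26 ± 0.136 in cG, which did not pass. It was called lower in 12 stimulations, in 14 without control library 1, in 3 without control library 2 and in 4 with scaling by total counts.

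In the same gene, Stat4 +44.8 kb (chr1:52052807-52053237) opened. From 0.219 and 0.675 CPM in control it was at 2.83 and 2.37 in L, 1.5 and 3.57 in S, 1.83 and 1.65 in cG, 1.4 and 2.15 in H, 1.53 and 0.794 in P, 1.05 and 0.525 in Z and 3.23 and 2.95 in PL. Its log2 fold change against control was 2.47 ± 0.551 in L, 2.45 ± 0.552 in S and 2.73 ± 0.552 in PL (adjusted p-value from edgeR 2.58e-05), and 1.31 ± 0.617 in P, which did not pass. It was called in 13 stimulations and in 8 without control library 1. Near the 3' end, Stat4 +92.4 kb (chr1:52100398-52100887) was higher in 6 stimulations, by 1.37 ± 0.366 in cG, from 1.86 and 2.22 CPM to 6.37 and 4.3. It was called in 1 without control library 1, in 1 without control library 2 and in 3 by DESeq2. A further peak, Stat4 +90.6 kb, also named after its values were seen, had 0 counts in both control libraries and at most 1.29 CPM in any other (ZS), which leaves its fold change undefined.

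Stat6, the mediator of IL-4 and IL-13, had a start peak that was called with only some ligands. Over the start (chr10:127641731-127644322, 2592 bp), control libraries stood at 21.4 and 20.8 CPM, S at 30.4 and 32.2, cG at 27.8 and 32.3, L at 24.3 and 24.1, P at 19.6 and 19.1, H at 21.3 and 18.4 and Z at 18.9 and 19.9. ScG stood at 27.4 and 33.9 and ZS at 31.5 and 31.1. S and cG were above both control libraries and above P, H and Z. The log2 fold change was 0.57 ± 0.132 in S (adjusted p-value from edgeR 0.000279), 0.51 ± 0.133 in cG, 0.53 ± 0.136 in ScG, 0.57 ± 0.136 in ZS and 0.47 ± 0.139 in ZScG, and no other stimulation passed. PS (22.3 and 24.1) and PcG (23.2 and 22.4), which add P to those ligands, gave 0.14 ± 0.132 and 0.11 ± 0.133. The number called was 5 without control library 1, 5 without control library 2 and 9 with scaling by total counts.

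Upstream, Stat6 -6.2 kb (chr10:127636530-127637030, in Gm40802) was higher in 16 stimulations. Control libraries stood at 1.09 and 1.16 CPM, S at 4.06 and 3.26, cG at 3.66 and 3.08, L at 4.24 and 2.48, H at 3.37 and 2.33, P at 2.44 and 2.89, and Z at 2.1 and 1.68, while ZScG reached 4.69 and 5.1. All stimulated libraries were above control. In log2 terms the change was 1.69 ± 0.402 in S, 1.24 ± 0.42 in P and 2.11 ± 0.411 in ZScG (adjusted p-value from edgeR 1.14e-05), and Z at 0.73 ± 0.47 did not pass. Calls numbered 10 without control library 1 and 11 without control library 2.

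Near the 3' end of Stat6, Stat6 +14.2 kb (chr10:127657044-127657347) had 1 and 5 counts in control (0.109 and 0.482 CPM). S stood at 1.9 and 1.91 CPM, ScG at 2.79 and 2.29, and ZScG at 3.35 and 2.76, while P stood at 0 and 0.289. The log2 fold change was 2.6 ± 0.684 in S, 3.02 ± 0.684 in ScG, 3.29 ± 0.682 in ZScG and -1 ± 1.01 in P, which did not pass. It was called in 9 stimulations and in 2 without control library 1. Its neighbour Stat6 +12.4 kb (chr10:127655197-127655662), at 1.75 and 1.25 CPM in control, was also called in 9, with L at 4.31 and 4.15 (1.5 ± 0.389), but in 1 without control library 2. Beyond the gene, the peak at the Nab2 start, Stat6 +24.7 kb (named after its values were seen), was the 1 STAT peak to go both ways, with 45.7 and 43.3 CPM in control, 55.3 and 59.6 in cG (0.37 ± 0.114) and 30.9 and 30.7 in PScG (-0.53 ± 0.119). With scaling by total counts it was called in 1 stimulation, higher.

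**Figure D5:**
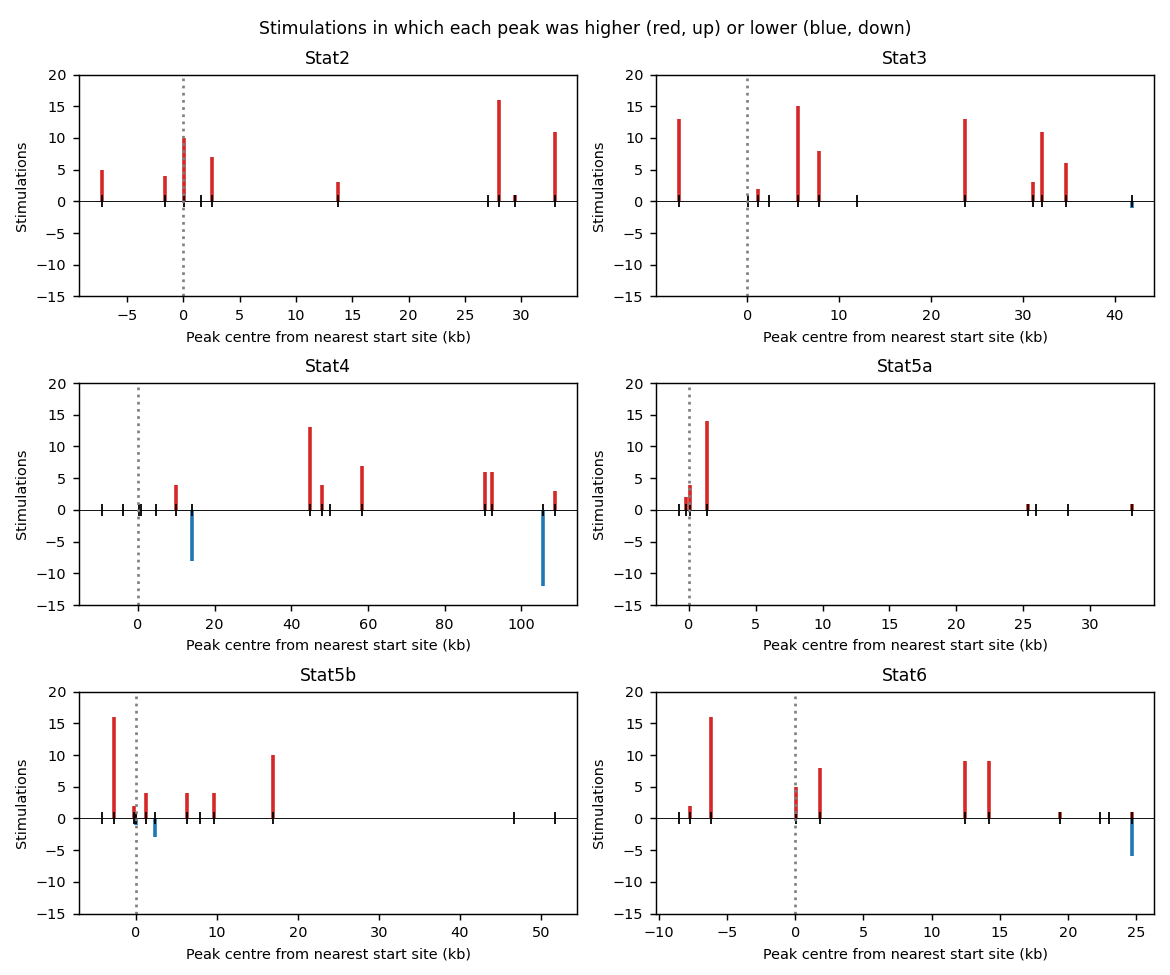
Number of stimulations (of 17) in which each STAT peak was higher (red, upward) or lower (blue, downward) than control, by distance of the peak's centre from the nearest start site of its nearest gene in kb, with ticks for all 68 peaks and a dotted line at the start. The tallest bars, 16 stimulations, stand away from the dotted lines at Stat2 (28.0 kb), Stat5b (-2.7 kb) and Stat6 (-6.2 kb), while the Stat3 start has none.

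Over the family, the 7 peaks over a start site were called in a median of 2 stimulations and the other 61 in a median of 3. Of the 68, 8 peaks (11.8%) were called in 13 or more stimulations, beside 11.2% of all tested peaks. Within the 4 stimulations that share the mitochondrial range of control (Z, ScG, ZcG and ZScG), 7 peaks were higher in 3 of 4: Stat2 +28.0 kb, Stat3 +5.5 kb, Stat3 -7.4 kb, Stat5b -2.7 kb, Stat6 -6.2 kb, Stat6 +1.8 kb and Stat6 +14.2 kb. The same share over all tested peaks was not counted, so whether 7 of 68 is unusual cannot be told. Stat6 +1.8 kb was called in 8 of the 17, in 2 without control library 1, and 1 call passed in every fit that left out 1 of its libraries.

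A further set of comparisons holds no control library and sets each pair against each of its single ligands. Over 16 such comparisons 70 STAT values were called, 59 higher in the pair and 11 lower, so that 84.3% of the calls were higher, beside 54.9% of the calls over all peaks. With P or Z as the partner, adding S had the most calls: 11 of 68 STAT peaks were called for PS against P (18.1% of all tested peaks) and 11 for ZS against Z (15.2%), or 16.2% of the STAT peaks in each. PcG against P had 10 (14.7%), PL against P 8 (8.46%), PH against P 3 (2.66%) and ZcG against Z 4 (9.07%). PcG against cG had 9 (9.11%), ScG against cG 4 (4.94%), PH against H 3 (7.55%) and LH against H 2 (3.78%). PS against S had 2 (2.93%), ZS against S 2 (2.53%) and ZcG against cG 1 (2.87%). In PL against L (1.13%), LH against L (0.0645%) and ScG against S (0.579%), edgeR called 0, with 7, 3 and 10 at an unadjusted p-value under 0.05, and DESeq2 called 0 in all 3. The STAT shares were thus of the order of those of all peaks. Counted by group, Z, ScG and ZcG share the mitochondrial range of control, and the other groups compared here do not. In ZS against Z, ScG against S or cG, and ZcG against cG, the mitochondrial share and the added ligand therefore cannot be told apart.

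Stat3 +5.5 kb was the peak that a second ligand raised most often, in 10 of the 16 comparisons. Its log2 difference was 1.67 ± 0.306 for PL against P, 1.72 ± 0.313 for PcG against cG, 1.64 ± 0.317 for PH against H and 1.74 ± 0.412 for ZS against Z. The low peak Stat3 +23.7 kb was higher in PL, PS and PcG than in P, by 2.89 ± 0.579, 3.14 ± 0.553 and 3.07 ± 0.558. Stat5b -2.7 kb was higher in PS (0.85 ± 0.221) and PcG (0.98 ± 0.222) than in P, in PcG than in cG (0.68 ± 0.217) and in ZS than in Z (1.36 ± 0.291). Adding P lowered the Stat6 start, by -0.43 ± 0.123 in PS against S and -0.4 ± 0.125 in PcG against cG. The Stat6 start was higher by 0.69 ± 0.139 in ZS than in Z, 2 groups that also differ in mitochondrial share. Stat2 +32.9 kb, the Pan2 start, was lower in PL (-0.47 ± 0.113) and PH (-0.39 ± 0.11) than in P.

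An interaction term asks whether 2 ligands given together differ from their single effects added on the log2 scale. Over 8 pairs, 27 STAT values were called, 25 of them below the sum (92.6%, beside 60.0% of the calls over all peaks). ScG had 9 (14.4% of all tested peaks), PL 5 (6.75%), PS 3 (4.59%), PcG 3 (3.27%), ZS 3 (3.43%), LH 2 (4.88%), PH 1 (1.55%) and ZcG 1 (2.49%), so that these shares too were of the order of those of all peaks. At Stat2 +28.0 kb, the term was -1.44 ± 0.197 for PcG, -1.33 ± 0.197 for PS, -1.21 ± 0.203 for ScG and -1.12 ± 0.2 for PL: cG and P alone gave 1.22 ± 0.15 and 1.4 ± 0.148 against control, and PcG gave 1.18 ± 0.148. At Stat5b -2.7 kb, it was -2.02 ± 0.371 for ScG, -1.72 ± 0.383 for PL, -1.68 ± 0.385 for LH and -1.57 ± 0.368 for PS. Counted by group, only the ZS term is balanced between the 2 ranges of mitochondrial share. The ZS libraries themselves differed, at 58.11% and 50.98%, and the first lies within the high range. Control lies in the high range, so the terms of the other 7 pairs and of all 3 triplets leave a difference between the ranges, largest for ScG and PScG, and the part of that difference in the terms was not tested. Of the 3 triplet terms, PScG had 1 STAT call (2.0% of all peaks), at Stat2 +28.0 kb (1.68 ± 0.272), and PLH (0.783%) and ZScG (1.89%) had 0 by edgeR. The count at an unadjusted p-value under 0.05 was 8 in PLH and 15 in ZScG, and DESeq2 called 0 in both and 3 in PScG. Of all 28 interaction calls, 12 passed in every fit that left out 1 of their libraries.

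Adding another ligand to a pair changed few STAT peaks. In the 9 comparisons of a triplet with 1 of its pairs, 9 values were called, and 5 without ScG library 1: 5 for PScG against ScG (4.53% of all tested peaks), 3 for ZScG against ZcG (2.79%) and 1 for PScG against PS (0.602%). The first Stat5a start was higher in PScG than in PS (1.28 ± 0.335) and in ZScG than in ZcG (1.47 ± 0.391). Stat4 +14.0 kb was higher in PScG than in ScG (0.97 ± 0.249), as was Stat3 -7.4 kb (1.66 ± 0.448). ScG lies in the high range of mitochondrial share and PScG in the low one, so the share and the added P cannot be told apart there. ZScG against ZS crosses the ranges too. The other 6 comparisons had 0 by edgeR, namely PLH against PL (0.000837%), PH (0.248%) and LH (0.546%), PScG against PcG (0.412%), and ZScG against ZS (0.0586%) and ScG (0.772%). At an unadjusted p-value under 0.05 they had 3, 10, 8, 10, 7 and 3 STAT peaks in that order, and DESeq2 called 1, in PLH against LH.

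To see which other peaks resemble the STAT peaks, the most often called peak of each gene was correlated with 95418 peaks over 100 kb away, over the 18 group means of log2 CPM. These correlations are descriptions, since all peaks share the libraries. For Stat5b -2.7 kb the closest were a peak 1048 bp from Tmem120b (Pearson r 0.971), one 19762 bp from Slfn2 (0.966) and one in Slc22a5 (0.963), where 1 peak in 100 exceeded 0.847. For Stat3 +5.5 kb the closest lay in Anks1 (0.965) and Nek7 (0.961), and for Stat2 +28.0 kb in Krcc1 (0.933), Rab20 (0.932) and Hivep3 (0.932). Stat4 +44.8 kb was closest to a peak in Cflar, the gene of an inhibitor of caspase 8 (0.95), then to ones in Zbtb8a (0.934) and 108483 bp from Dnajb6 (0.93). Stat6 -6.2 kb was closest to a peak in Nr1d1, a clock repressor (0.946), and to ones near Card14 (0.933) and Mtss1 (0.933). Among the STAT peaks themselves, Stat3 +5.5 kb went with Stat5a +1.4 kb (0.924) and Stat5b -2.7 kb with Stat5a +1.4 kb (0.858). Stat4 +14.0 kb ran opposite to the Stat6 start (-0.778), and the Stat3 start was little related to Stat3 +5.5 kb (0.146).

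Other genes of the pathway were counted by the same rule of position, from lists of receptors, kinases and cofactors, inhibitors, and target genes. Among 22 receptor genes with 197 peaks, 33 peaks were higher and 14 lower in S, 29 and 10 in cG, 29 and 9 in L, 25 and 6 in P, and 6 and 2 in Z. S thus had 16.8% higher, beside the 14.1% of all peaks given above, with a median log2 of 0.20. Without control library 1 the receptor peaks called fell from 38 to 21 in L, from 47 to 29 in S and from 39 to 18 in cG. They numbered 19 of 31 in P without P library 1, 27 in S without S library 2, and 21 and 22 in cG without cG libraries 1 and 2. Ifnar2, a chain of the type I interferon receptor, had the most calls over the 17 stimulations (88 higher, 9 lower, over 15 peaks). At 1 of them CPM rose from 0.437 and 0.386 to 3.66 and 2.52 in S (2.88 ± 0.554). Ifnar1, the other chain of that receptor, had 0 calls over 6 peaks, and Osmr 0 over 2. Il10rb, the shared chain of the IL-10 receptor, had a peak that rose from 0.328 and 0.289 to 4.58 and 5.04 CPM in S (3.93 ± 0.461), and by 4.70 in P and 3.30 in Z. The windows of Ifnar2 and Il10rb share peaks, since the genes are neighbours. Csf2rb, the shared beta chain of the GM-CSF receptor, had a peak that rose by 2.88 ± 0.497 in cG, and Il13ra1, a chain of the IL-13 receptor, one that rose by 2.60 ± 0.668 in S. Other receptor genes, named after their values were seen, had more lower than higher calls. Ifngr1, a chain of the interferon gamma receptor, had 0 higher and 26 lower, Il12rb2, a chain of the IL-12 receptor, 2 and 24, Il21r 6 and 44, and Lifr 11 and 32. Their windows held 5, 7, 19 and 12 peaks in that order, each with 17 stimulations. Of the values of all tested peaks, 13% were called higher and 12.3% lower. The lower calls of Il21r were near that share, and those of Lifr little above it. The Il12rb2 peak fell from 3.17 and 1.93 CPM in control to 0.981 and 0.369 in S (-1.91 ± 0.552), a call that was lost without control library 1 or S library 2.

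Among 10 genes of kinases and cofactors with 91 peaks, 19 were higher and 5 lower in S, 16 and 5 in cG, 19 and 7 in L, 11 and 8 in P, and 1 and 2 in Z. S thus had 20.9% higher, beside 14.1% of all peaks, with a median of 0.24. Jak1, a kinase of many cytokine receptors, had the most calls, and nearly as many up as down (65 higher, 74 lower). It also had the most peaks of the list, 31, each with 17 stimulations. Of the values of all tested peaks, 13% were called higher and 12.3% lower. Stam2, an adaptor of the endosomal sorting machinery, had a peak that rose from 0.546 and 0.193 to 5.1 and 4.55 CPM in S (3.71 ± 0.515). Tyk2, a kinase of the interferon receptor, rose at 1 peak by 2.78 ± 0.498 in S, and Irf9, the partner of Stat2, by 2.68 ± 0.576 in cG.

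Among 17 inhibitor genes with 163 peaks, 38 were higher and 13 lower in S, 38 and 6 in cG, 41 and 4 in L, 38 and 6 in P, and 12 and 1 in Z. In P, 23.3% were higher, beside 11.1% of all peaks, with a median of 0.19. Without control library 1 the inhibitor peaks called fell from 45 to 28 in L, from 51 to 33 in S and from 13 to 7 in Z. They numbered 25 of 44 in P without P library 2 and 26 of 44 in cG without cG library 2. Socs3, which blocks signalling by receptors of the IL-6 type, had 121 calls over 11 peaks, all higher. At 1 of them CPM rose from 0.219 and 0.868 to 3.89 and 2.16 in L (2.39 ± 0.484). Pias2 and Pias1, SUMO ligases that bind STAT proteins, had peaks that rose by 4.07 ± 0.653 in S and 3.02 ± 0.558 in cG, and Socs5 one that rose by 2.71 ± 0.668 in S, a call that was lost without control library 2.

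Among 24 target genes with 211 peaks, 63 were higher and 15 lower in S, 68 and 10 in cG, 65 and 9 in L, 30 and 12 in P, 33 and 7 in H, and 18 and 4 in Z. That is 32.2% higher in cG and 30.8% in L, beside 11.6% and 11.2% of all peaks, and 14.2% in P, beside 11.1%, with medians of 0.54, 0.54 and 0.07. Without control library 1 the target peaks called fell from 78 to 51 in cG, from 42 to 25 in P, from 40 to 21 in H and from 22 to 11 in Z. They numbered 27 in P without P library 2, 23 and 26 in H without H libraries 1 and 2, and 13 and 14 in Z without control library 2 and Z library 2. At Ifit3, an interferon-induced gene, a peak rose from 8.85 and 5.02 CPM in control to 59.0 and 67.5 in L (3.21 ± 0.147) and fell by 0.84 on the log2 scale in P. A peak at Ifit1, of the same family, rose from 1.31 and 0.579 to 12.0 and 10.7 in S (3.60 ± 0.331), and 1 at Isg15, an interferon-induced ubiquitin-like modifier, by 2.94 ± 0.50 in S. Among genes known as IL-4 and Stat6 targets, named after their values were seen, the direction was mixed. Chil3 had 0 higher and 17 lower calls over 4 peaks, and Retnla 0 and 16 over 2. Mrc1 had 27 and 75 over 18 peaks, Arg1 10 and 39 over 7, and Fcer2a 6 and 13 over 4. The other way went Ccl22, with 29 higher and 0 lower over 6 peaks, Ccl17 (21 and 3 over 9) and Ccl24 (13 and 5 over 5). Each peak has 17 values, and of those of all tested peaks 13% were called higher and 12.3% lower. The higher calls of Ccl17 were near that share, and those of Ccl24 little above it. A peak at Mrc1, the mannose receptor, fell from 6.45 and 5.21 CPM in control to 0.523 and 1.17 in S (-2.76 ± 0.418). In S, a peak at Chil3 changed by -2.17 ± 0.334 and 1 at Retnla by -2.29 ± 0.403, and these 3 calls passed without any 1 library. Socs3, Cish and Usp18 are in the lists of inhibitors and of targets both.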

How the data were processed

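The deposited table holds read counts per peak in 36 libraries, and all of its columns were matched to samples by name (0 were unmatched). Per the submitters' processing notes, the authors used Bowtie2 2.2.9, MACS2, bedtools and featureCounts with the mm10 build to make these counts; the labels give 50000 cells lysed, 12 PCR cycles and 42-cycle reads. The members and gene lists were chosen with earlier results of these data known.

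Of 119751 peaks, 286 were removed as low (edgeR filterByExpr, minimum count 10) and 1, over the mitochondrial genome, was left out of library sizes, filter and tests, a choice made after its counts were seen. The other 119464 were tested in edgeR 4.0.16 (R 4.3.3) with TMM factors, 1 coefficient per group over all 36 libraries, a trended dispersion and a robust quasi-likelihood F test with 18 residual degrees of freedom. P-values were adjusted by Benjamini-Hochberg over all tested peaks within each of 53 contrasts, with a threshold of 0.05. The standard error is the log2 fold change divided by the square root of F. CPM are counts scaled to the TMM-corrected library size, and the likeness of peaks used log2 CPM with a prior count of 2. Peaks were named by their position or their calls: those over a start, the 3 of each gene called in the most stimulations, and the largest called interaction of each gene. In the gene lists, the gene with the most calls was named. Up to 3 others were named by the largest absolute log2 fold change in S, cG or L. Fits that left out 1 library kept the tested peaks and dispersion trend of the full fit. Sequences came from RefSeq. Counting error alone sets a floor of 3 counts. The fit was tested on simulated data. Exons and introns were not told apart here. Of the peaks most like the STAT peaks, 1 is not reported here.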

Additional observations from a re-analysis of the deposited data

Results flagged for a closer look

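In 28 cases an interaction term showed that the effect of a ligand on a STAT peak differed by whether another was present (edgeR, adjusted p-value under 0.05); values are log2 with the standard error, n = 2 libraries per group. Counted by group, no term apart from ZS is balanced between the 2 ranges of mitochondrial share, and ZS library 1, at 58.11%, lies within the high range. The part of that share in the terms was not tested.

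At the Stat2 start the term was -0.52 ± 0.163 for PL, -0.51 ± 0.162 for LH, -0.56 ± 0.161 for PcG and -0.54 ± 0.163 for ScG, and each lost its call without at least 1 library. At Stat2 +28.0 kb, over Il23a, it was -1.12 ± 0.2 for PL, -1.33 ± 0.197 for PS, -1.44 ± 0.197 for PcG, -1.21 ± 0.203 for ScG and -0.85 ± 0.218 for ZcG, and the triplet term of PScG was 1.68 ± 0.272. All but ZcG passed without any 1 library. Stat2 +32.9 kb, the Pan2 start, had -0.75 ± 0.164 for PL, -0.69 ± 0.162 for PH, -0.7 ± 0.16 for PS and -0.67 ± 0.162 for PcG; the PH call was lost in 3 of 8 fits that left out 1 library and the PcG call in 1. At Stat2 +27.1 kb both Z libraries had 0 counts, control had 5 and 4, S had 2 and 3, and ZS had 10 and 14. With the floor of 3 counts over the Z group, the ZS term came to 4.31. The adjusted p-value from edgeR, 0.00463, belongs to the fit without that floor. S, with 2 and 3 counts, was also near the floor, so 4.31 is not a firm lower bound.

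Stat3 -7.4 kb had -2.09 ± 0.645 for PL and -2.5 ± 0.673 for ZS. For ScG, Stat3 +34.7 kb had -2.11 ± 0.631 and Stat3 +23.7 kb -2.43 ± 0.858. Of 8 such fits, the Stat3 -7.4 kb calls were lost in 5 for PL and 2 for ZS, the Stat3 +34.7 kb call in 3 and the Stat3 +23.7 kb call in 6. Stat5b -2.7 kb had -1.72 ± 0.383 for PL, -1.68 ± 0.385 for LH, -1.57 ± 0.368 for PS and -2.02 ± 0.371 for ScG, of which all but PS passed without any 1 library. At Stat4, +92.4 kb had -2.01 ± 0.507 for ScG and +14.0 kb had 1.1 ± 0.339 for ZS (adjusted p-value from edgeR 0.044); the latter was lost in 6 of 8 such fits. At Stat6, the ScG term was -1.67 ± 0.533 at -6.2 kb, -0.55 ± 0.184 at the start and -1.62 ± 0.561 at +12.4 kb, lost in 5, 5 and 4 of 8 such fits.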

How the results depend on the processing

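None of the 343 single calls changed direction under any alternative run. Among values against control not called in the report, 4 with total-count scaling and 1 with offsets by abundance changed sign and were called higher, all at the Stat3 start. Total-count scaling raised STAT calls to 21 in P, 35 in L, 13 in H, 23 in cG, 33 in PL, 41 in PcG, 42 in PLH, 69 over pair interactions, 22 over triplet interactions and 19 over triplets against pairs; the cause was not tested beyond the shift of the median given above. With only the groups compared in the fit, Z had 1. Triplet interactions, 1 in the report, numbered 2 with RLE factors, offsets by abundance, mitochondrial counts kept, no filter or only the groups compared, and 3 with DESeq2; the cause was not tested. With the replicate number as a block, triplet interactions numbered 2 and 341 of 343 single calls held. Over 153 pairs of groups, the deviations of same-numbered libraries correlated at -0.04 to 0.03. These were taken over all tested peaks, where counting noise at low peaks weighs in, so whether same-numbered libraries share an origin cannot be told from them. Of the 343, 318 held with DESeq2, 325 with total counts, 321 with offsets by abundance, 306 with only the groups compared (of 330 that could be fitted) and 342 each with RLE factors, no filter or mitochondrial counts kept. With 1 library left out, STAT calls ran 6 to 11 in P, 10 to 14 in L, 2 to 5 in H, 15 to 17 in S, 11 to 12 in cG, 0 to 2 in Z, 14 to 18 in PL, 10 to 15 in PH, 11 to 14 in LH, 17 to 21 in PS, 17 to 21 in PcG, 13 to 18 in ScG, 11 to 16 in ZS, 7 to 12 in ZcG, 16 to 21 in PLH, 23 to 28 in PScG and 16 to 21 in ZScG. They ran 52 to 73 over pairs against singles, 20 to 29 over pair interactions, 1 to 2 over triplet interactions (2 without either library of P or cG, or library 2 of PS, ScG or ZScG, or library 1 of ZcG) and 5 to 10 over triplets against pairs. List calls over the 17 stimulations were 717 for receptors (475 to 717), 439 for kinases and cofactors (270 to 439), 794 for inhibitors (576 to 791) and 1256 for targets (883 to 1250), with the lowest of the first 2 without control library 1. A window of 2 kb would keep 52 peaks. Each group had 2 libraries, and a value that missed the threshold is not shown to be unchanged.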
